A study of Mus musculus with 6 samples.

Results

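The genes described here code for the proteins that start and lengthen polypeptide chains and for the enzymes that load amino acids onto tRNA. They were measured in the mouse melanoma line B16.F10, in 3 samples given 3.5 µM simvastatin for 24 h and 3 samples left without treatment for 24 h. Simvastatin blocks HMG-CoA reductase, the rate-limiting enzyme of cholesterol synthesis. Both groups were wild type cells of a single line grown with serum, and the labels describe the dose as the IC50 found earlier by the submitters. The labels give the control as untreated and name no solvent for it. Members were taken by name from the authors' deposited table of all transcripts, as the genes whose symbols begin with Eif1 to Eif6, Eef1, Eef2, Paip1 or Paip2 or follow the pattern of a tRNA synthetase symbol, without the Eef1akmt methyltransferases. The rule used no measured value. It found 93 genes with 217 transcripts, of 8513 genes and 15905 transcripts in all. By role these were 40 initiation factor genes, 11 genes for regulators of initiation, 6 for elongation factors, 3 linked to elongation, 20 for cytosolic and 9 for mitochondrial synthetases. The other 4 carry such a name but are not translation factors by role, among them the pseudogene Eif4a-ps4 and the noncoding RNA Eif2c5.

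Translation of most mRNAs starts when eIF4F, made of the cap-binding eIF4E, the scaffold eIF4G and the helicase eIF4A, recruits the small ribosomal subunit, which carries eIF3 and the initiator tRNA bound to eIF2. eIF2 is recharged with GTP by eIF2B, and phosphorylation of its alpha subunit by a stress kinase slows most initiation while mRNAs such as that of Atf4 are translated more. Elongation then uses eEF1A, which brings in aminoacyl-tRNA, and eEF2, which moves the ribosome. In melanoma cells both the MTOR pathway, through the eIF4E-binding proteins, and the ATF4 programme, which includes many cytosolic synthetase genes, are known to act on this machinery.

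To show what the regulatory DNA of these genes holds, 4 motifs were searched on both strands of the RefSeq promoters of build GRCm38.p6, from 250 bases before to 50 bases after a gene's start. They were TGATGNAA, the C/EBP-ATF element that ATF4 can bind, the E-box CACGTG, the sterol element TCACNCCAC and the NRF1 core TGCGCA, and none of the 4 contains another. Promoters were found for 69 of the 93 genes, 85 promoters in all. Of the 12 cytosolic synthetase genes with a promoter, 5 held TGATGNAA, which is 41.7% of them, while 2.15% of the 7877 promoters of genes in the authors' deposited table and 3.97% of all 32851 promoters held it. The windows around the matches in 4 of these genes follow on the strand of each gene with the motif in capitals. In Yars it reads as spelled and in the other 3 it reads as its reverse complement.
Gars, chr6:55037960-55037989, plus strand: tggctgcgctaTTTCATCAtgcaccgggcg
Iars, chr13:49682126-49682155, plus strand: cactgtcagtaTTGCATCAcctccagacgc
Tars, chr15:11399655-11399684, minus strand: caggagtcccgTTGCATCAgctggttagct
Yars, chr4:129189895-129189924, plus strand: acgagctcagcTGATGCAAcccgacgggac
The motif began 30 bases before the start in Gars and 15 bases before it in Tars, and at base 8 after the start in Iars and base 4 after it in Yars. None of the 7 promoters of mitochondrial synthetase genes, the 16 of initiation regulators or the 9 of elongation factors held the element. Of the 33 promoters of initiation factors 1 held it. Against 2.15% of promoters of genes in the table, counts this low in sets this small are near the background.

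The E-box was present in 24.2% of the 33 promoters of initiation factors, against 10.8% of promoters of genes in the table. It was in 33.3% of the 12 promoters of cytosolic synthetases and 44.4% of the 9 of elongation factors, and in none of those of initiation regulators or mitochondrial synthetases. Most of the 9 promoters of elongation factors belong to Eif5a, and some of these overlap and share an E-box. Counted by gene, the E-box was in 2 of 4 elongation factor genes, against 12.9% of genes in the table. Genes with the E-box lay on both sides of control, with Eef2, Eef2k, Eif3a, Iars and Tars above it. Of the members with an E-box, the 3 with the lowest ratio of simvastatin to control were Eif4a1, Eif5a and Eif4e, and their windows are shown for that reason, with the E-box in capitals.
Eif4a1, chr11:69672596-69672623, minus strand: gatcgcctccgCACGTGtaaaggtgctg
Eif5a, chr11:69921444-69921471, minus strand: aggggcggggtCACGTGtgtgcgtcatc
Eif4e, chr3:138527193-138527220, plus strand: gacacgtccgtCACGTGggcaggagccg
The NRF1 core was found in 33.3% of the promoters of initiation factors and likewise of cytosolic synthetases, against 15.2% of promoters of genes in the table. The sterol element was in 1 member promoter, that of Eif2s3x, or 1.18%, against 1.21%. A motif match is a description of the letters in the window, and no binding was measured in these samples.

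Few of the translation transcripts were called different between simvastatin and control, and few were called among all transcripts of the table. By the adjusted p-value under 0.05 in the authors' deposited table, 2 of the 217 transcripts rose, from the genes Eif2ak3 and Paip2, and 1 fell, from Eef1d. That is 0.922% and 0.461% of the member transcripts, against 1.11% of all 15905 transcripts called higher and 0.987% called lower. In either direction the share was 1.38% of member transcripts against 2.09% of all transcripts. The table gives 1 value per group for each transcript, with no unit named, so the comparisons are between the groups for the same gene or the same set of genes, and a higher value in 1 gene than in another is not read as more RNA. With bulk RNA, fewer cells of a type and less RNA per cell cannot be told apart.

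Eif2ak3 codes for PERK, the eIF2 kinase of the endoplasmic reticulum, and lies at chr6:70844515-70905245 on the plus strand of GRCm38. In the authors' deposited table its single transcript stood at 23.0 in the simvastatin group and 13.1 in the control group, a rise of 1.75-fold with an adjusted p of 0.045. Paip2 codes for a protein that binds poly(A)-binding protein and hinders translation, and its gene lies on chromosome 18. Its 2 transcripts went opposite ways. The isoform ENSMUST00000115736, which GENCODE release 21 does not list, rose to 4.44 in the simvastatin group against 0.12 in the control group, with an adjusted p of 0.042 in the authors' deposited table. The deposited fold of 37.0 for it rests on that low control value, and with 1 added to both values the ratio was 4.86. The main isoform, ENSMUST00000041314, stood at 17.8 in the simvastatin group against 34.5 in the control group, a deposited fold of -1.94 whose adjusted p of 0.062 in the authors' deposited table missed the threshold. A negative deposited fold is the control value over the simvastatin value. Summed over both isoforms, Paip2 stood at 22.2 in simvastatin cells and 34.6 in control cells.

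Eef1d codes for a subunit of the eEF1B complex, which exchanges GDP for GTP on eEF1A, and lies at chr15:75894205-75909556 on the minus strand. The transcript that fell, ENSMUST00000134222, is annotated as a retained intron and not as coding. It stood at 11.7 in the simvastatin group and 18.3 in the control group, with a fold of -1.56 and an adjusted p of 0.033 in the authors' deposited table. The gene's 4 coding transcripts were not called. Of these, ENSMUST00000023235 stood at 15.0 in simvastatin cells and 10.7 in control cells, and ENSMUST00000109972 at 9.35 in simvastatin cells and 11.9 in control cells.

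At looser thresholds the member transcripts leaned to the lower side. An adjusted p under 0.1 was reached by 12 member transcripts on the lower side and 3 on the higher side, which is 5.53% and 1.38% of them, against 3.76% and 4.02% of all transcripts. In either direction this made 6.91% of members against 7.78% of all transcripts. Of the 12 on the lower side, 3 came from the 4 genes that carry such a name without the role. They include the pseudogene Eif4a-ps4, whose reads may be shared with Eif4a1. An unadjusted p under 0.05 was reached by 26 on the lower side and 4 on the higher side, or 12% and 1.84%, against 10.2% and 9.42% of all transcripts. In either direction these were 13.8% of members against 19.6% of all transcripts. The genes named without the role gave 3 of the 26 on the lower side, Eif4a-ps4 again among them. At the unadjusted threshold the share on the lower side was thus near that of all transcripts and the share on the higher side was below it, and this difference in shares was not tested. The authors' own call, a yes or no column whose rule the sources used here do not state, marked 3 member transcripts higher and 5 lower, or 1.38% and 2.3%, against 5.13% and 4.37% of all transcripts. Together these were 3.69% of members against 9.5% of all transcripts.

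**Figure D1:**
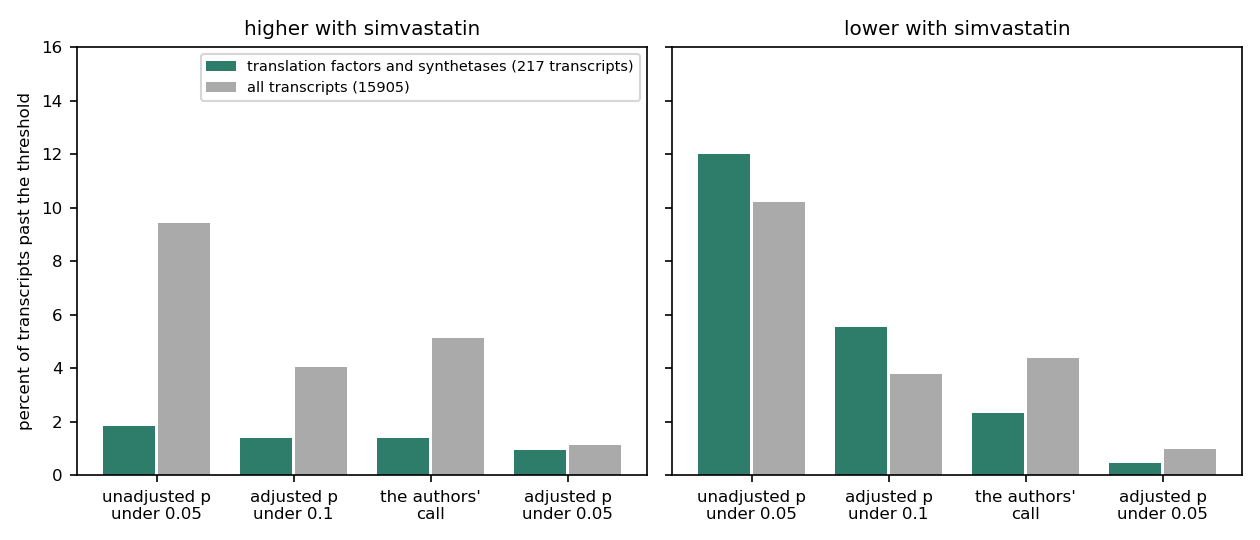
Percent of transcripts past each threshold in the authors' deposited table, for the 217 transcripts of translation factors and synthetases (green) and all 15905 transcripts (grey), higher with simvastatin on the left and lower on the right. At an unadjusted p under 0.05 the green bar stands at 1.84% on the higher side and 12% on the lower side.

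To compare roles, the transcript values were summed per gene in each group, and the log2 ratio of the simvastatin total to the control total was taken for genes with both totals at least 1. This left 92 of the 93 members and 8252 of all genes. The median log2 ratio was -0.15 over the members and 0.02 over all genes, and 62% of members were below 0 against 48.3% of all genes. Initiation factors had a median of -0.19 with 27 of 40 genes below 0, and elongation factors one of -0.37 with 5 of 6 below 0. The regulators of initiation were on the other side, with a median of 0.20 and 8 of 11 genes above 0. Cytosolic synthetases had a median of -0.04 with 12 of 20 below 0, and mitochondrial synthetases one of -0.14 with 5 of 8 below 0.

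The medians of initiation and elongation factors differed by 0.18, and those of cytosolic and mitochondrial synthetases by 0.11. These are descriptions of single values per gene, since genes are not replicates and no value per sample was used. The differences are the same under any common scaling, but the sign of some role medians is not. The deposited values summed to 344209.8 in the simvastatin group and 394748.8 in the control group, and much of that gap lay in the 10 transcripts of highest control value, which include the noncoding RNAs Rn7s1 and Rmrp and summed to 63784.5 with simvastatin and 102463.8 in control. Scaling both groups to the same sum moved the median of all genes to 0.21, the medians of initiation factors to 0.01, of cytosolic synthetases to 0.16 and of mitochondrial synthetases to 0.05, all then above 0, while that of elongation factors stayed below at -0.17. Measured from the median of all genes, which moves with every gene under such a scaling, initiation factors were at -0.20, elongation factors at -0.38, regulators at 0.18, cytosolic synthetases at -0.05 and mitochondrial synthetases at -0.16. Against that median 28 of 40 initiation factor genes and 5 of 6 elongation factor genes were lower. After scaling to equal sums 20 and 4 of these genes were below 0.

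**Figure D2:**
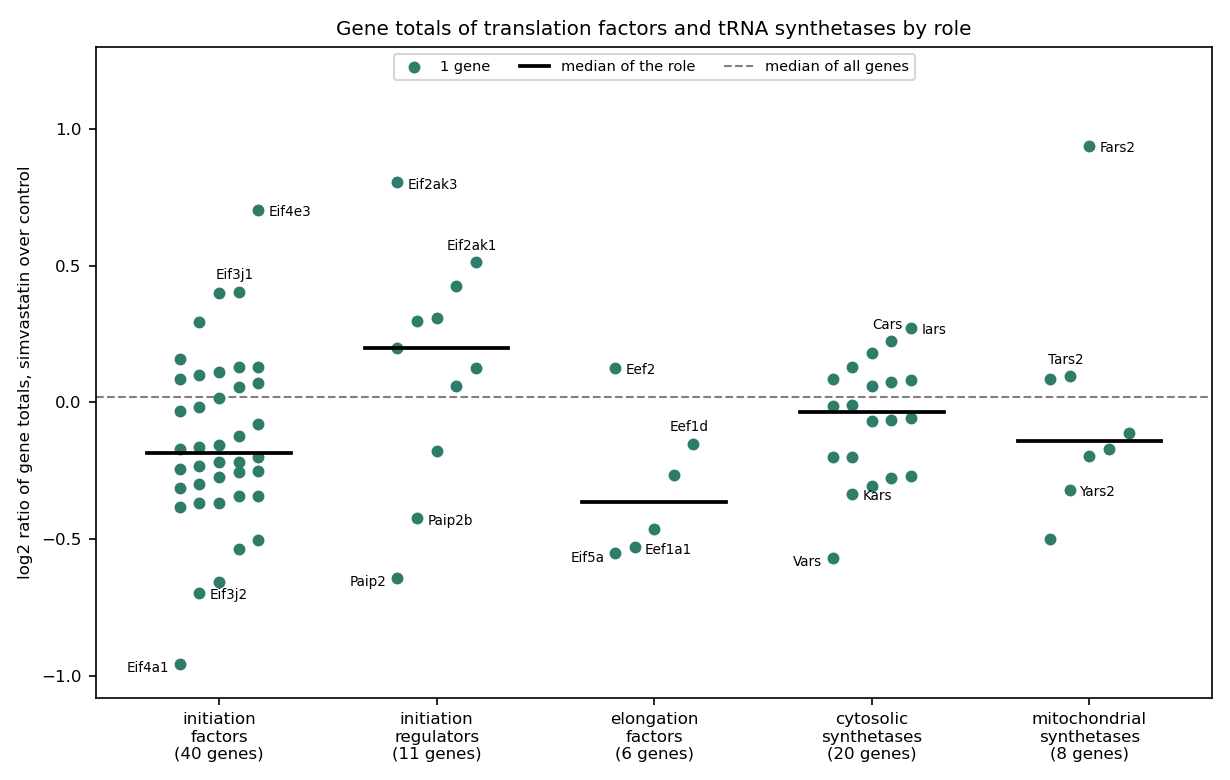
Log2 ratio of gene totals, simvastatin over control, for each gene with both totals at least 1 (points), with the median of each role (black bars) and of all genes (dashed line). Initiation regulators have their bar at 0.20 and elongation factors at -0.37.

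Among the initiation factors, no transcript of 95 passed an adjusted p under 0.05 in either direction by the authors' deposited table, against 2.09% of all transcripts. An unadjusted p under 0.05 was reached by 2 on the higher side and 12 on the lower side. These are 2.11% and 12.6% of the 95, against 9.42% and 10.2% of all transcripts, so the share on the lower side was near the background. The eIF3 complex bridges the small subunit and eIF4G. Of its 14 genes, 12 had totals below control as deposited, 12 were below the median of all genes and 8 stayed below 0 after scaling to equal sums, and the sum over the complex was 909.3 in simvastatin cells against 1051.8 in control cells. Eif3c, a core subunit, stood at 122 in simvastatin cells and 133 in control cells. Eif3b stood at 96.0 in simvastatin cells and 113 in control cells, with an adjusted p of 0.094 in the authors' deposited table. Eif3g, an RNA-binding subunit, had the lowest ratio after Eif3j2, with 39.9 in simvastatin cells against 57.9 in control cells and an adjusted p of 0.077 in the authors' deposited table. Other subunits lay less far below control or near it. Eif3e stood at 76.2 in simvastatin cells against 98.3 in control cells, Eif3h at 94.8 against 110 in control, and Eif3m at 70.1 against 89.0 in control. Eif3d, Eif3i, Eif3k and Eif3l had log2 ratios between -0.24 and -0.16. Eif3f was nearly level, at 61.1 in simvastatin cells and 61.9 in control cells. The 2 genes above control were Eif3a, at 41.7 in simvastatin cells and 38.9 in control cells, and Eif3j1, at 8.55 and 6.46. Eif3j1 has a near-identical copy, Eif3j2, which stood at 2.29 in simvastatin cells and 3.71 in control cells, so the split of reads between the 2 is uncertain.

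The subunits of eIF2 did not lean one way. Eif2s1, the alpha subunit that the kinases phosphorylate, stood at 26.6 in simvastatin cells against 33.7 in control cells, with an adjusted p of 0.212 in the authors' deposited table. Eif2s3x, the gamma subunit that binds GTP and the initiator tRNA, stood at 58.3 in simvastatin cells and 69.5 in control cells. Eif2s2, the beta subunit, was on the other side, with 45.7 in simvastatin cells and 37.3 in control cells. Of the 5 genes of eIF2B, 4 were below control and below the median of all genes, and 3 stayed below 0 after scaling to equal sums. The regulatory subunit Eif2b1 was nearest to the threshold, with 18.3 in simvastatin cells against 23.8 in control cells and an adjusted p of 0.064 in the authors' deposited table. The catalytic subunit Eif2b5 stood at 27.7 in simvastatin cells and 32.2 in control cells, Eif2b4 at 5.57 against 7.89 in control, Eif2b3 at 4.77 against 5.31 in control, and Eif2b2 at 23.1 against 22.2 in control.

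The cap-binding and helicase factors held both ends of the range of the initiation factors. Eif4a1, the helicase of eIF4F, had the lowest ratio of all members, with a total of 77.2 in simvastatin cells and 149.8 in control cells. Its coding transcript stood at 53.0 in simvastatin cells against 91.2 in control cells with an adjusted p of 0.718, and the authors called only a noncoding processed transcript of it, at 0.35 in simvastatin cells against 6.21 in control cells, with an adjusted p of 0.059 in the authors' deposited table. The pseudogene copy Eif4a-ps4 stood at 50.4 in simvastatin cells and 69.0 in control cells, with an adjusted p of 0.059 in the authors' deposited table, and reads of the near-identical sequences may be shared between them. Eif4e, which binds the cap, stood at 15.8 in simvastatin cells and 24.9 in control cells. Eif4e3, a related cap-binding protein, had the highest ratio of the initiation factors, with 22.8 in simvastatin cells and 14.0 in control cells and a fold of 1.63 in the authors' deposited table. Its adjusted p was printed there as 0.05, so it bears the authors' call but is not counted here.

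The other factors around eIF4F were closer to level. Eif4g1, the main scaffold, stood at 129.8 in simvastatin cells and 132.5 in control cells, and Eif4g2, which lacks the site for eIF4E, at 126 and 120.2. Eif4g3 stood at 17.7 in simvastatin cells and 13.4 in control cells. Eif4a2, the paralog of Eif4a1, stood at 50.9 in simvastatin cells and 45.5 in control cells. Eif4h, a partner of the helicase, stood at 107 in simvastatin cells and 138 in control cells, and Eif4b, another partner, at 82.4 and 81.6.

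Of the 6 genes for scanning and start codon choice, 4 were below control as deposited and 3 after scaling to equal sums. Eif1, which guards start codon choice, was on the other side, with 272.2 in simvastatin cells and 248.8 in control cells. Its paralog Eif1b stood at 26.2 in simvastatin cells and 32.3 in control cells, with an adjusted p of 0.076 in the authors' deposited table. Eif5, which prompts GTP hydrolysis by eIF2, stood at 106 in simvastatin cells and 127 in control cells. Eif5b, which joins the ribosomal subunits, had a log2 ratio of 0.11. Eif6, which keeps the ribosomal subunits apart, stood at 53.1 in simvastatin cells and 65.9 in control cells. Eif1a and Eif1ax, near-identical to each other, stood at 37.2 and 16.3 in simvastatin cells against 39.3 and 19.7 in control cells, and their reads may be shared. Eif2a and Eif2d, which can deliver initiator tRNA without eIF2, stood at 22.4 and 24.6 in simvastatin cells against 21.1 and 22.5 in control cells.

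All 4 eIF2 kinase genes had totals above control, as deposited and under each of the 2 scalings to equal sums, and only Eif2ak3 among them passed the test. Summed, the kinases stood at 45.3 in simvastatin cells and 31.0 in control cells. Eif2ak1, the heme-regulated kinase, stood at 5.19 in simvastatin cells and 3.64 in control cells, with an adjusted p of 0.677 in the authors' deposited table. Eif2ak2, the kinase PKR that senses double-stranded RNA, stood at 11.6 in simvastatin cells and 10.1 in control cells, with an adjusted p of 0.672 in the authors' deposited table. Eif2ak4, the kinase GCN2 that senses uncharged tRNA, stood at 5.51 in simvastatin cells and 4.10 in control cells, with an adjusted p of 0.74 in the authors' deposited table. Each kinase gene had 1 transcript in the table.

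The 4 regulators of cap binding were also above control under each scaling, and none passed the test. Eif4ebp1, which holds eIF4E away from eIF4G until MTOR phosphorylates it, stood at 37.4 in simvastatin cells and 30.4 in control cells. Eif4ebp2 stood at 65.1 in simvastatin cells and 59.7 in control cells. Eif4e2, a cap-binding protein that competes with eIF4E, stood at 35.9 in simvastatin cells and 29.0 in control cells, and the eIF4E transporter Eif4enif1 at 28.1 and 27.0. All 3 partners of poly(A)-binding protein had totals below control as deposited. Besides Paip2 these were its paralog Paip2b, at 12.9 in simvastatin cells and 17.3 in control cells, and Paip1, which aids translation, at 25.5 and 28.9. After scaling to equal sums Paip1 was above control.

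**Figure D3:**
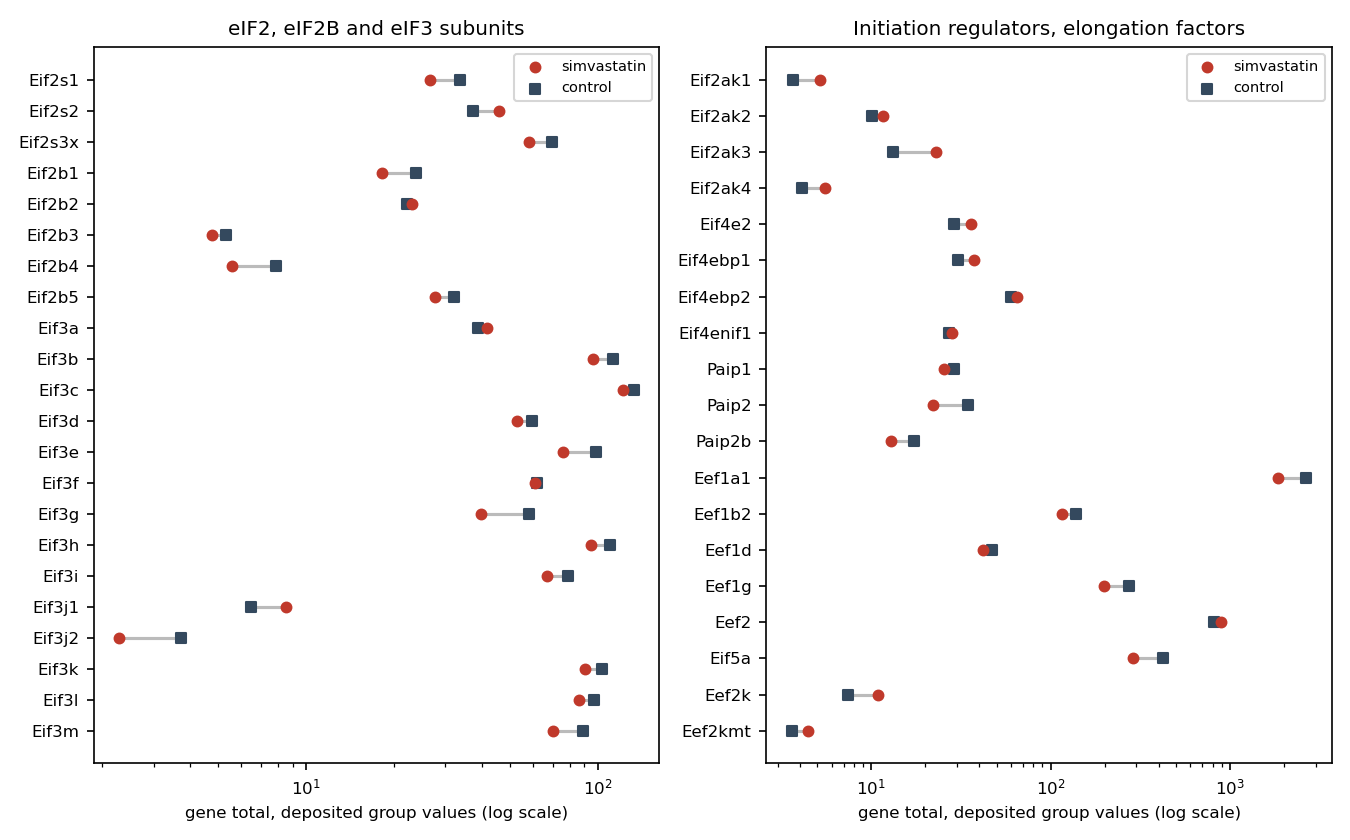
Gene totals of the deposited group values in simvastatin (red circles) and control (dark squares) on log axes, for the subunits of eIF2, eIF2B and eIF3 (left) and for initiation regulators and elongation factors (right). In the values as deposited, red lies left of dark for 12 of the 14 eIF3 genes and right of dark for the 4 eIF2 kinase genes.

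All 4 genes of eEF1 had totals below control as deposited, and 3 of the 4 after scaling to equal sums. Eef1a1, the factor that brings aminoacyl-tRNA to the ribosome, stood well below control, with 1842 in simvastatin cells and 2661 in control cells. The lowest adjusted p among its 7 transcripts was 0.443 in the authors' deposited table, and pseudogene copies of it may share its reads. Eef1g, a structural subunit of eEF1B, stood at 199 in simvastatin cells and 274 in control cells, and its main transcript had a fold of -1.38 and an adjusted p of 0.071 in the authors' deposited table. Eef1b2, an exchange subunit, stood at 115 in simvastatin cells and 139 in control cells. Eef1d summed to 42.1 in simvastatin cells and 46.8 in control cells, and this was the gene above control after scaling.

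Eef2, which moves the ribosome along the mRNA, was on the other side of control, with 887.9 in simvastatin cells and 813.0 in control cells. Eef2k, the kinase that inactivates eEF2, stood at 10.9 in simvastatin cells and 7.38 in control cells, with an adjusted p of 0.356 in the authors' deposited table. Eif5a, named as an initiation factor but acting mainly in elongation and termination, stood at 288 in simvastatin cells and 423 in control cells, with a lowest adjusted p of 0.44 in the authors' deposited table. Counting Eif5a with initiation reduced the difference between initiation and elongation medians to 0.07. Eef1e1, a scaffold of the multisynthetase complex, stood at 7.60 in simvastatin cells and 11.0 in control cells. The 4 genes that carry a translation factor name without the role were all below control. They were still below after scaling to equal sums. Among them Eif4a3, a core of the exon junction complex, stood at 42.1 in simvastatin cells and 59.0 in control cells, with an adjusted p of 0.057 in the authors' deposited table. Eif1ad stood at 10.4 in simvastatin cells and 14.9 in control cells, with an adjusted p of 0.077 in the authors' deposited table.

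The cytosolic synthetases kept close to control. None of their 47 transcripts passed an adjusted p under 0.05 by the authors' deposited table, against 2.09% of all transcripts. At an unadjusted p under 0.05 the table had 0 on the higher side and 4 on the lower side, from Dars, Farsb, Kars and Vars, and these 4 are 8.51% of the 47, under the 10.2% of all transcripts. Log2 ratios of the 20 genes ran between -0.57 and 0.27. Vars, the valyl-tRNA synthetase, was the lowest, with 43.0 in simvastatin cells and 63.7 in control cells. The transcript of Vars that bears the authors' call stood at 19.4 in simvastatin cells and 34.7 in control cells, with an adjusted p of 0.181 in the authors' deposited table. Kars, which serves both cytosol and mitochondria, stood at 43.8 in simvastatin cells and 55.3 in control cells, and its main transcript had an adjusted p of 0.094 in the authors' deposited table. Wars, the tryptophanyl enzyme, stood at 17.5 in simvastatin cells and 21.7 in control cells.

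The highest by ratio were Iars, the isoleucyl enzyme, with 46.9 in simvastatin cells and 38.8 in control cells, and Cars, the cysteinyl enzyme, with 41.3 and 35.4. Gars, which also serves both compartments, stood at 198 in simvastatin cells and 187 in control cells. Sars, the seryl enzyme, stood at 84.4 in simvastatin cells and 74.5 in control cells. Nars, the asparaginyl enzyme, and Rars, the arginyl one, were nearly level, at 83.5 and 38.1 in simvastatin cells against 84.3 and 38.4 in control cells. Eprs, which joins 2 synthetases in a single protein, stood at 67.4 in simvastatin cells and 64.0 in control cells. The genes Dars, Farsa, Farsb, Hars, Lars, Mars and Qars had log2 ratios between -0.28 and 0.13. The 4 genes whose TGATGNAA windows are shown lay on both sides of control. Their log2 ratios were 0.08 for Gars, 0.27 for Iars, 0.08 for Tars and -0.20 for Yars.

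Among the mitochondrial synthetases, no transcript of 16 passed an adjusted p under 0.05 by the authors' deposited table. Over all transcripts the share was 2.09%, so a count of 0 among 16 is near the background. At an unadjusted p under 0.05 the table had 0 on the higher side and 1 on the lower side. These are 0% and 6.25% of the 16, against 9.42% and 10.2% of all transcripts. Yars2, the tyrosyl enzyme, stood at 9.26 in simvastatin cells and 11.6 in control cells. Iars2, the isoleucyl enzyme, stood at 12.8 in simvastatin cells and 12.1 in control cells. Nars2, Rars2, Tars2 and Vars2 had log2 ratios between -0.20 and 0.10. Fars2 and Hars2 were above control, but at low values, with 3.64 and 1.44 in simvastatin cells against 1.90 and 0.64 in control cells. Hars2 is the member left out of the medians.

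**Figure D4:**
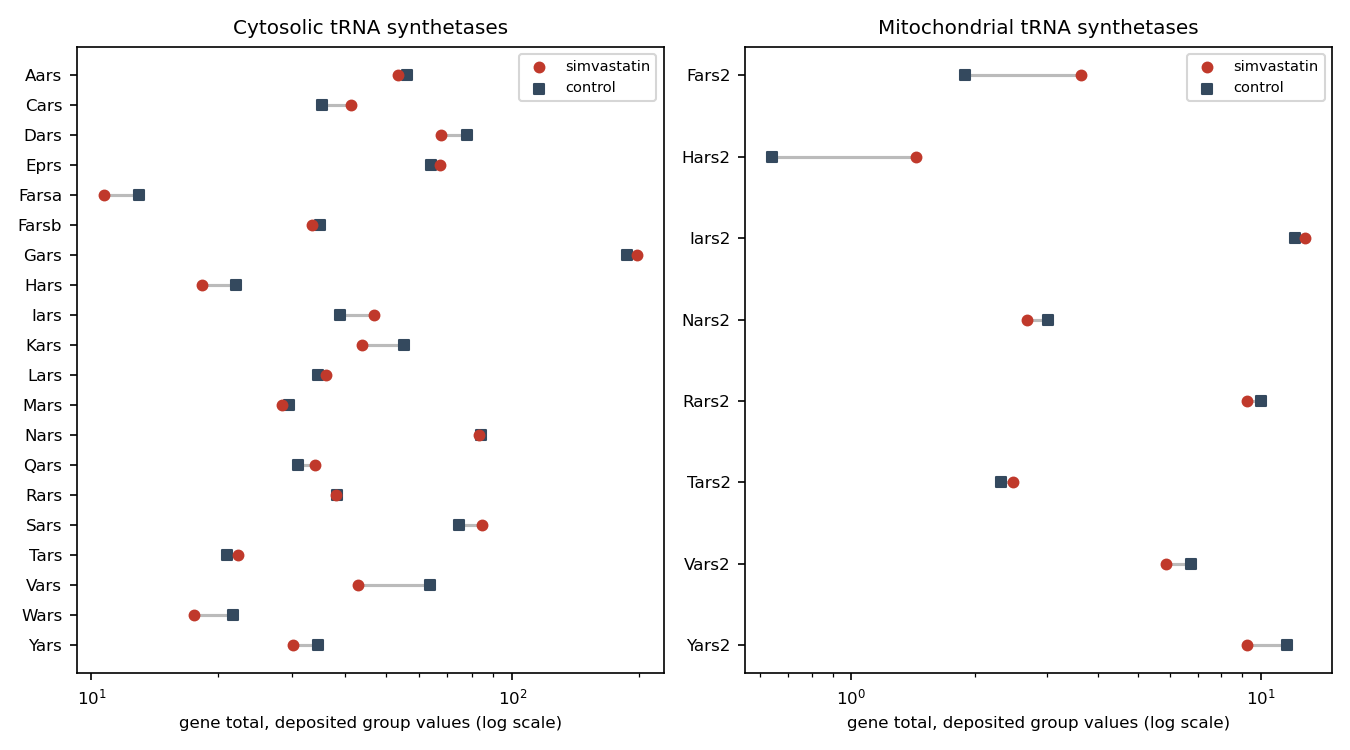
Gene totals of the deposited group values in simvastatin (red circles) and control (dark squares) on log axes, for 20 cytosolic (left) and 8 mitochondrial (right) synthetase genes. Vars shows the widest gap among the cytosolic genes, at 43.0 with simvastatin and 63.7 in control.

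Many genes had several transcripts, 58 of the 93 with at least 2 and up to 7 in a gene, and totals could hide opposite movements. In 9 genes, namely Aars, Eef1d, Eif4a2, Eif4e2, Eif4g1, Eif4g2, Eif4g3, Eif5a and Gars, transcripts with both values at least 1 differed from control by over 1.5-fold in opposite directions. In Gars the transcript that led in control held 55.4% of the gene's total in simvastatin cells and 98.5% in control cells. The second Gars transcript stood at 88.1 in simvastatin cells and 2.75 in control cells, with an adjusted p of 0.30 in the authors' deposited table. The leading Eif4g2 transcript held 28.9% of the total in simvastatin cells and 61.1% in control cells, and that of Aars 8.7% and 35.4%. In Eif4g1 the share of the leading transcript was 77.1% in simvastatin cells and 48.9% in control cells. Apart from Eef1d, no transcript of these 9 genes passed an adjusted p under 0.05. The sources used here do not say how reads were divided among transcripts of a gene, and its part in these values was not tested.

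Genes with a single transcript, whose value cannot be shifted between isoforms, were taken without the filter on low totals. The 5 such cytosolic synthetase genes had a median log2 ratio of 0.06. The 3 such mitochondrial ones had a median of -0.20 with Hars2 among them, so their order against initiation factors is not read. Elongation factors have no such gene. Of the 16 initiation factor genes with a single transcript 13 were below control, with a median log2 ratio of -0.23. The 4 such regulator genes, the eIF2 kinases, were all above control. By transcript type, 108 coding transcripts of the members had both values at least 1 and, as deposited, a median log2 ratio of -0.19, with 65 lower and 43 higher. The 27 retained introns had a median of 0.01. Over all genes the median was 0.05 for coding transcripts and 0.03 for retained introns.

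**Figure D5:**
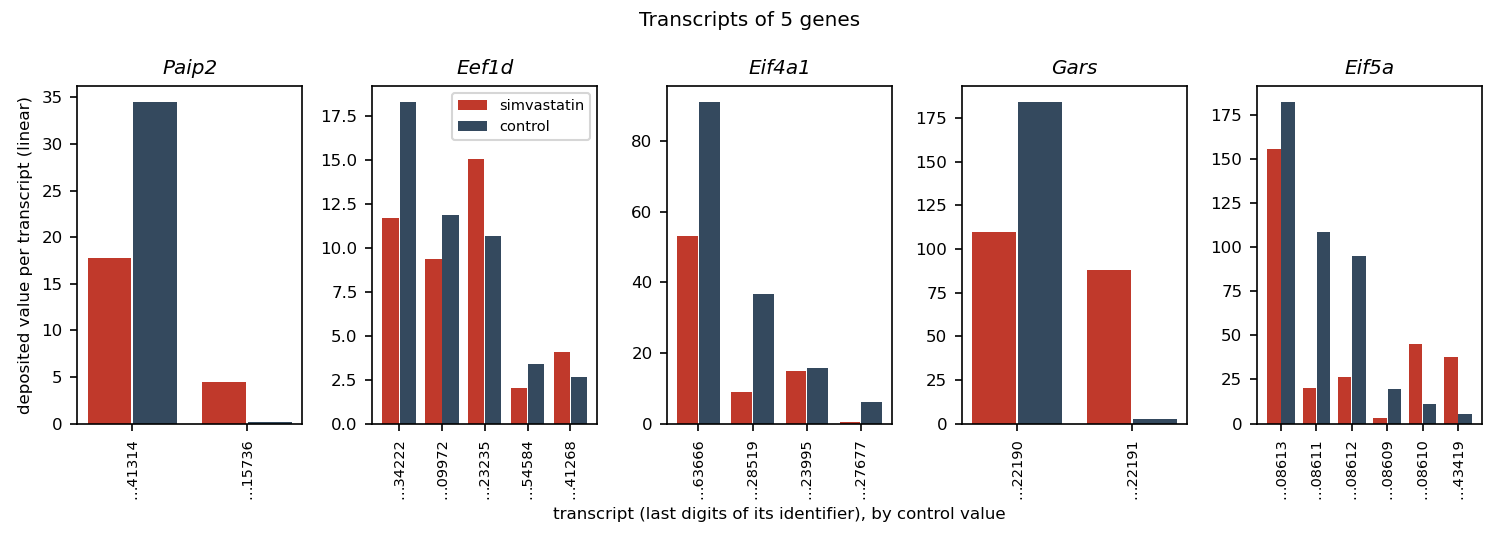
Deposited value of each transcript in simvastatin (red) and control (dark) for Paip2, Eef1d, Eif4a1, Gars and Eif5a, on linear axes starting at 0, ordered by control value. The second Gars transcript reaches 88.1 with simvastatin and 2.75 in control, while the first stands at 109 and 184.

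The genes around the members were read from lists. Of the 3 poly(A)-binding protein genes, Pabpc1, which coats poly(A) tails and binds eIF4G and the Paip proteins, rose to 264 in the simvastatin group against 124 in the control group, 2.12-fold with an adjusted p of 0.042 in the authors' deposited table. The other two, Pabpc4 and Pabpn1, stood at 18.7 and 33.5 in simvastatin cells against 22.8 and 43.6 in control cells. Of 8 measured mitochondrial translation factors Gfm1, an elongation factor, fell to 17.8 in the simvastatin group against 21.6 in the control group, with an adjusted p of 0.042 in the authors' deposited table, and the list had a median log2 ratio of -0.28. None of 5 termination and recycling genes passed the test, against 2.09% of all transcripts, so a count of 0 is near the background. As deposited 4 of them were below control, with a median of -0.13, which scaling to equal sums would turn above 0. The release factor Etf1 was near the threshold, with an adjusted p of 0.062 in the authors' deposited table, as was the recycling factor Abce1 with 0.057. Both scaffold genes Aimp1 and Aimp2 were below control. So were Eefsec, Pstk and Ptrh2, the 3 measured genes of a list of further tRNA-related genes outside the name rule, none of them a synthetase. None of these genes passed.

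Of 22 measured genes in a list of ATF4 and its targets, none passed an adjusted p under 0.05 in either direction by the authors' deposited table. The share over all transcripts was 2.09%, so a count of 0 in a list this small is not read as a result. As deposited 15 were above control and 7 below, and the median log2 ratio was 0.16. Atf4 itself stood at 141 in simvastatin cells and 119 in control cells. Asns, asparagine synthetase and a classical ATF4 target, stood at 82.2 in simvastatin cells and 79.7 in control cells, and the stress factor Ddit3 at 19.3 and 17.8. The largest ratios were those of the cystine transporter Slc7a11, at 21.3 in simvastatin cells and 6.40 in control cells, of Atf3, at 16.5 and 6.94, and of Nupr1, at 14.5 and 7.43. Their lowest adjusted p-values were 0.11, 0.138 and 0.571 in the authors' deposited table. Phgdh, the first enzyme of serine synthesis, was on the other side, at 93.0 in simvastatin cells and 155 in control cells, with an adjusted p of 0.071 in the authors' deposited table. None of 12 measured genes of MTOR signalling to translation and none of 4 measured genes of the MYC network passed, against 2.09% of all transcripts. These counts of 0 in small lists are not read as results either. The medians of these 2 lists were 0.21 and 0.49. Of the MTOR genes with both totals at least 1, 7 were above control and 4 below. In the MYC network the log2 ratios were 0.32 for Myc, 0.13 for Max, 0.66 for Mxi1 and 1.40 for Mxd4. Myc itself was at low values, with 1.83 in simvastatin cells and 1.47 in control cells. Mknk2, a kinase of eIF4E, had a transcript at 76.2 in simvastatin cells and 45.8 in control cells with an adjusted p of 0.09 in the authors' deposited table. Mxd4, a repressor that competes with MYC for MAX, had a transcript at 34.7 in simvastatin cells and 10.7 in control cells, with an adjusted p of 0.059 in the authors' deposited table.

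The cells carried the markers of their label. All 9 melanocytic markers, among them Pmel, Tyrp1 and Mitf, were in the table, with totals between 43.0 and 3437 in simvastatin cells. Of 10 markers of blood, endothelial, stromal and epithelial cells only Cd68 was in the table, with 0.93 in simvastatin cells and 0.37 in control cells.

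A further deposited table sets 158 genes of the mouse comparison beside an outside signature of A375, a human melanoma line given simvastatin for 24 h. The A375 cells were given a higher dose than the mouse cells, per the file headers. Eif2ak3 was the only member in it. Its log2 fold change in the mouse cells was 0.76 in this further deposited table of the authors, or 1.69-fold, with an adjusted p of 0.0451. The main deposited table gave 1.75-fold for it, and the reason for this gap was not tested. The z-score of Eif2ak3 in A375 cells was 2.77.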

How the data were processed

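RNA of 6 cultures of B16.F10 cells, 3 simvastatin and 3 control, was sequenced from stranded total RNA libraries, per the labels' protocols. The series text calls the samples biological replicates, and only if that holds do the p-values measure spread between cultures. All 6 carry a single batch label. Per the submitters' processing notes, HISAT2 2.0.5 and StringTie were run on build GRCm38 (mm10). The sources used here do not give counting, normalization, the filter on low values, the test or the use of strand in counting.

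The authors deposited, per the file headers, 1 value per group and transcript, a yes or no call, the fold of simvastatin over control with a sign, and both a p-value and its adjustment over all transcripts, printed to 3 decimals. No source used here names the unit of the group values, and depth per sample is unknown, so no SD, interval or refitted test was possible. A second table deposited by the authors gave their log2 fold change. It also holds, per the file headers, a score for A375 cells, the z-score of an outside signature.

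A transcript was counted as called where the adjusted p was under 0.05. Transcript values were summed per gene, and log2 ratios of the totals and their medians were computed in Python 3.11.15 with pandas 2.3.3 and numpy 2.4.6, for genes with both totals at least 1. The scripts were tested on simulated data. GENCODE mouse release 21 gave transcript types and coordinates. Named were members with a called transcript or the authors' call, per role the 2 genes of highest total and the 2 of largest ratio each way, members with transcripts over 1.5-fold apart in opposite directions, and others with their values or in a range. A gene and a promoter window that this rule or the motif search gave are not reported here, though counts and medians include them. The members and lists were chosen with earlier results of these data known. The motifs were searched in RefSeq promoters.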

Additional observations from a re-analysis of the deposited data

How the results depend on the processing

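Counts of called transcripts depended on the threshold. The 2 member transcripts called higher became 4 at an unadjusted p under 0.05, and the 1 called lower became 12 at an adjusted p under 0.1, 5 by the authors' own call and 26 at an unadjusted p under 0.05. For the medians and differences of log2 ratios, 70 alternative values were computed under 10 settings, of which 60 kept their sign and stayed within 0.1 of the reported value. Many of these 60 could not move, so their number does not measure stability. Leaving out Gars and Kars or moving Eif5a leaves the other roles untouched, and common scalings or centring leave both differences as they were. Centring moves each median by only 0.0188. With both groups scaled to equal sums over all transcripts, the median of all genes was 0.2147, and the medians were 0.0121 for initiation factors, 0.1627 for cytosolic synthetases and 0.0546 for mitochondrial synthetases, each with its sign turned, and -0.1676 for elongation factors and 0.3969 for initiation regulators. Scaling to equal sums over protein-coding transcripts, chosen after seeing the data, gave 0.0023 for cytosolic synthetases, with its sign turned. Requiring both totals to be at least 10 left 1 mitochondrial synthetase, Iars2, at 0.0857, and turned the difference of cytosolic minus mitochondrial medians to -0.1207. Taking the transcript of highest mean value per gene gave 0.3401 for initiation regulators. Counting Eif5a with initiation, also chosen after seeing the data, gave 0.0672 for initiation minus elongation. Beyond what the scalings and filters do by construction, the cause was not tested. No paired analysis was possible because the deposited table has 1 value per group and none per sample. For the same reason leaving out each replicate in turn and a fit with the replicate block were not run. Depth per sample is unknown, so the error of single values, above all of low ones, cannot be given.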

Other observations

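Values not yet given are those of members at the edges of the name rule, which are in the counts and medians above. Eif2c5, annotated in GENCODE as a long intergenic noncoding RNA, stood at 2.01 in simvastatin cells and 3.29 in control cells. Eef2kmt, which methylates eEF2, stood at 4.41 in simvastatin cells and 3.61 in control cells.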
